A study of Homo sapiens with 52 samples.

Results

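The genes TFAP2B, TFAP2A, CDH3, NOS1, PIPOX, OLIG2, CNR1, DCX and PODXL mark fusion-positive rhabdomyosarcoma (FP-RMS), and their RNA levels were followed through a chemical screen of FP-RMS cells. They were chosen by name as markers of PAX3-FOXO1 positive tumours and make up 9 of the 27043 genes in each of 52 expression tables. Every sample was an RNA-seq library of an established FP-RMS cell line grown in DMEM and carrying the PAX3-FOXO1 fusion. In the screen, 44 samples titled RH41 were treated for 6 h with 1 of 20 compounds at a high and a low dose 10-fold apart, or with 0.2% or 0.1% DMSO, the solvent, with 2 numbered DMSO samples at each concentration. Another 8 samples, titled RH4, held N1302 at 1 µM for 6 h with its own DMSO sample, and entinostat at 1 µM for 1, 6 or 24 h with a DMSO sample at each time. The cell line label reads RH4 for all 52 samples, so the groups are called here by their titles. High and low doses were 5 and 0.5 µM for LAQ824, Cpd50 and GSKJ4 and 10 and 1 µM for the other compounds.

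FP-RMS is a childhood soft tissue cancer with features of immature skeletal muscle, in which a translocation joins the DNA-binding part of PAX3 to the activating part of FOXO1. The fusion protein binds distal enhancers together with muscle transcription factors, and the most heavily loaded clusters of such enhancers are called super enhancers. Acetyl groups on histones are added there by EP300 and CREBBP, read by bromodomain proteins and removed by histone deacetylases (HDACs). The marker genes encode proteins of unrelated function. TFAP2A and TFAP2B encode the transcription factors AP-2 alpha and AP-2 beta, and OLIG2 a basic helix-loop-helix factor of oligodendrocyte and motor neuron precursors. PIPOX encodes a peroxisomal sarcosine and pipecolic acid oxidase, and NOS1 the neuronal nitric oxide synthase. CDH3 (P-cadherin), PODXL (the sialomucin podocalyxin) and CNR1 (the cannabinoid receptor of the brain) encode proteins of the cell surface. DCX encodes doublecortin, which binds microtubules in migrating neurons. Antibodies to AP-2 beta and P-cadherin are used on tumour sections to tell fusion-positive from fusion-negative rhabdomyosarcoma.

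By the hg19 gene models, TFAP2B lies at chr6:50786439-50815326 on the plus strand, TFAP2A at chr6:10396916-10419797 on the minus strand and CNR1 at chr6:88849585-88875767 on the minus strand. CDH3 lies at chr16:68678739-68732970 (plus), NOS1 at chr12:117645947-117799607 (minus) and PIPOX at chr17:27369918-27384236 (plus). OLIG2 lies at chr21:34398216-34401503 (plus), DCX at chrX:110537007-110655460 (minus) and PODXL at chr7:131185021-131241376 (minus). Levels were measured over whole genes, from reads of annotated transcripts.

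Promoter sequences are shown for TFAP2B, TFAP2A and PIPOX because these members fell with the same 3 compounds of the screen, as described further on. Each window runs from 250 bases before to 50 bases after an annotated start, read 5′ to 3′ on the gene's strand from RefSeq, build GRCh38.p14. The windows are TFAP2B chr6:50818621-50818920 (plus), the first of 2 TFAP2A windows chr6:10419610-10419909 (minus) and PIPOX chr17:29042891-29043190 (plus). Capitals mark matches on either strand to CAGCTG (an E-box bound by muscle factors), GCCNNNGGC (a core bound by AP-2) and ATTA (a homeodomain core, which reads TAAT on the other strand).
TFAP2B: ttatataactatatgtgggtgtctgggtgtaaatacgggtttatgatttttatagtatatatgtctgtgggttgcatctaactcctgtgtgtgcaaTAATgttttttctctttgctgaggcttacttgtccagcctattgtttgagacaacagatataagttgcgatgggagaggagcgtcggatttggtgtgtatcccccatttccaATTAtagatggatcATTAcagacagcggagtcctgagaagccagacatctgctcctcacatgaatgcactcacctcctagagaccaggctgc
TFAP2A: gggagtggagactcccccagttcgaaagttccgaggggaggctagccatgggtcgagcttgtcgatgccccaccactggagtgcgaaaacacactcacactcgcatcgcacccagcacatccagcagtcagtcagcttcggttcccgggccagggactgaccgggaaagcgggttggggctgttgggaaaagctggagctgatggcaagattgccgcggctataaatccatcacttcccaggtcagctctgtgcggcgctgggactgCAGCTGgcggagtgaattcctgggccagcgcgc
PIPOX: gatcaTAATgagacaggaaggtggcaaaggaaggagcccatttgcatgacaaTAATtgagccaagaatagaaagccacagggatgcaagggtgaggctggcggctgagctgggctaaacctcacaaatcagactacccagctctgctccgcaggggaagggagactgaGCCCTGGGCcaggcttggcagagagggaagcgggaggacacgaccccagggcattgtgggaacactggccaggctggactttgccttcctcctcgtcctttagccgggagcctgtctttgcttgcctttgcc
The TFAP2B window held 3 matches to ATTA and a GC content of 43.0%. The TFAP2A window shown held 1 match to CAGCTG, with a GC content of 61.7%. The second TFAP2A window, chr6:10412342-10412641 (minus, not shown), held no match to any of these motifs, with a GC content of 68.0%. In the PIPOX window, 2 matches to ATTA and 1 to GCCNNNGGC were found at a GC content of 57.3%. In none of the 3 windows shown did matches overlap. Of 35116 RefSeq promoter windows of this length, 17.9% held CAGCTG, 23.2% GCCNNNGGC and 50.2% ATTA, so each of these motifs is common. The RefSeq table also held windows for NOS1, CNR1 and DCX. CDH3, OLIG2 and PODXL had no entry.

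Libraries held 5737939 to 41415071 reads in genes (median 15055060), and 12604 to 14997 genes reached 1 TPM (a level per transcript length, scaled to the same total in each sample). MYOD1 (640 to 648 TPM), MYOG (572 to 587 TPM) and DES (413 to 443 TPM), markers of the muscle lineage, were high in the screen DMSO samples. Of the other muscle genes listed, CHRND stood at 93.7 to 109 TPM and MYH3 at only 4.46 to 5.54 TPM. Markers of leukocytes, epithelium and endothelium were at or below 0.52 TPM in the screen DMSO samples, and PTPRC, KRT5 and KRT19 were at 0. Of the fibroblast markers, COL1A1 stood at 89.7 to 102 TPM, DCN at 2.02 to 2.36 TPM and LUM at 0.0772 to 0.216 TPM in these samples. In the RH4-titled DMSO samples COL1A1 was at 6.17 to 8.48 TPM, DCN at 0.866 to 4.41 TPM and LUM at 0.0940 to 0.475 TPM. In 3 libraries (Bromosporin, Merck60 and PFI-2, each at 10 µM) 69.4 to 75.6% of low genes had an even number of reads, and results with Bromosporin at 10 µM and of the high doses are given with and without them. The screen libraries came from 4 flow cells, and the DMSO samples were on other flow cells than those of 16 compounds. Over 10378 genes, the difference between the DMSO concentrations had 2.08 times the variance of counting noise. The duplicate DMSO libraries of a concentration were sequenced on different flow cells, and the difference between flow cells had 1.89 times that variance. Beyond that shared difference the pairs varied by no more than counting noise (0.995 times it), so each pair was averaged and counted as 1 sample.

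The control cells of the screen expressed 8 of the 9 markers clearly, from PIPOX at the top to CNR1, while CDH3 was near the limit of detection. PIPOX stood at 131 and 127 TPM in 0.1% DMSO and at 121 and 119 TPM in 0.2% DMSO, higher than 90.0% of the genes tested. The AP-2 genes were lower: TFAP2B had 50.1, 51.2, 46.7 and 48.0 TPM in the same order of samples, and TFAP2A 26.2, 25.7, 24.3 and 24.3 TPM. PODXL lay between them at 44.5, 42.8, 40.5 and 39.6 TPM. NOS1 ranged from 23.7 to 27.3 TPM, overlapping TFAP2A, and these neighbours in the order did not differ beyond their spread. The neuronal and glial genes followed, with DCX at 18.1 to 21.8 TPM and OLIG2 at 17.3 to 17.9 TPM. CNR1 was present at 2.77 to 3.75 TPM, from 100 to 180 reads a library. CDH3 had 0.280 to 0.389 TPM, which came from 7 to 12 reads a library, so changes downward from this level could not be measured at this depth.

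The markers kept a partly different order in the RH4-titled controls, where PIPOX still led but NOS1 and PODXL were far lower. NOS1 had 1.304 TPM in the DMSO sample of the N1302 experiment and 7.59, 8.04 and 9.72 TPM in the DMSO samples of 1, 6 and 24 h, all below the lowest screen sample. PODXL had 20.8, 10.2, 12.1 and 14.0 TPM in the same order, also below every screen sample. TFAP2B had 10.8, 43.1, 35.4 and 38.8 TPM, and PIPOX 23.4, 88.8, 77.4 and 80.5 TPM, each below every screen sample. In both of these the control of the N1302 experiment stood far below the 3 timed controls. TFAP2A showed the same split, with 12.8 TPM in that sample and 25.5 to 26.6 TPM in the timed ones, the latter overlapping the screen. DCX (11.05 to 13.2 TPM), OLIG2 (8.19 to 15.9 TPM) and CNR1 (0.492 to 2.13 TPM) were below the screen range in all 4 samples.

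**Figure D1:**
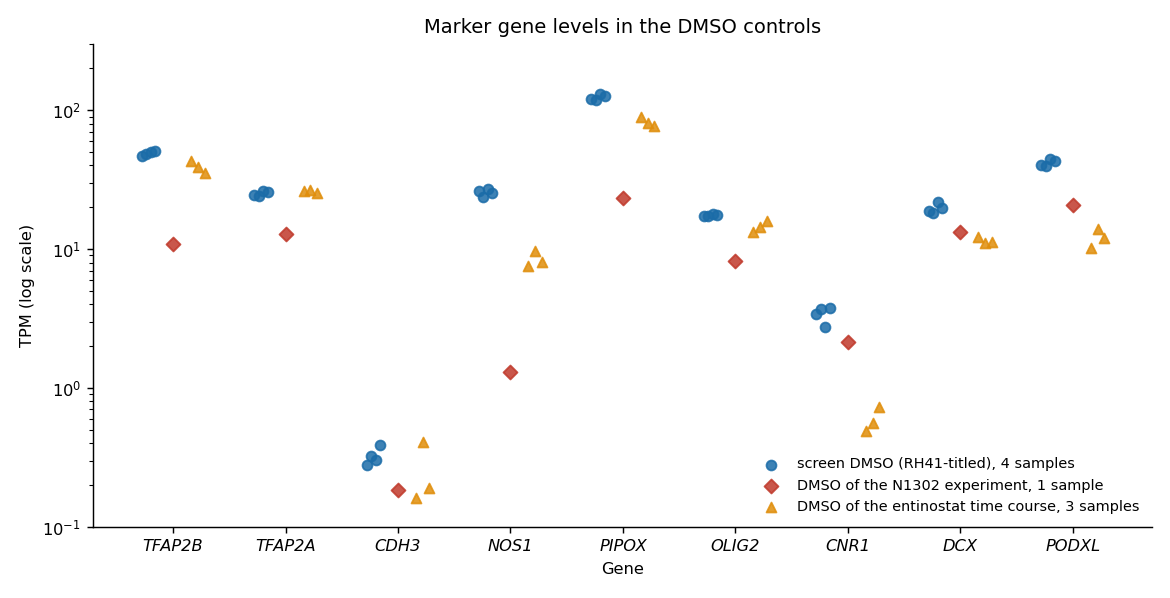
RNA level of each marker gene in the DMSO samples, in TPM on a log axis, with one point for each of the 4 screen samples, the DMSO sample of the N1302 experiment and the 3 timed DMSO samples of the entinostat experiment. The screen points nearly coincide for each gene, and TFAP2B, PIPOX, PODXL, NOS1, DCX, OLIG2 and CNR1 lie lower in all RH4-titled samples.

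Of the 9 members, 2 differed between the screen controls and the RH4-titled controls at an adjusted p under 0.05 (limma on log2(TPM + 1), Benjamini-Hochberg over 16359 genes), where 11.9% of all genes did. DCX was higher in the screen by 0.67 ± 0.13 (log2, SE; adjusted p = 0.030), and PODXL by 1.53 ± 0.28 (adjusted p = 0.027). For NOS1 the difference was 2.01 ± 0.66 with an adjusted p of 0.116, and for CNR1 1.22 ± 0.33 with an adjusted p of 0.072. The number of members that differed was 6 without the DMSO sample of the N1302 experiment, where 43.9% of all genes did, and 0 without any one of the 3 timed controls (3.83 to 6.19% of all genes). With the 6 h samples alone, 0 members and 0 genes passed by limma, with 3429 genes at an unadjusted p under 0.05. Of the 3 fibroblast markers, COL1A1 stood higher in all screen controls while DCN and LUM overlapped, and their part in these differences was not tested. Title, flow cell and experiment changed together here and cannot be told apart, and in bulk RNA fewer cells of a type and less RNA per cell cannot be told apart either. In DMSO at 0.2% against 0.1%, 0 of the 9 members and 0 of 16359 genes passed by limma, with 1548 genes at an unadjusted p under 0.05. Among these were TFAP2B, TFAP2A, PIPOX and PODXL, lower in 0.2% DMSO by −0.09 to −0.12 (log2) at an unadjusted p from 0.015 to 0.049. With so few samples, the lack of calls does not show that levels were equal.

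Across the 20 screen compounds, 28 of 180 pairs of a member and a compound passed the test against DMSO, 11 of them higher and 17 lower, where 8.7% of all pairs of a gene and a compound passed. Each fold change is the mean of the compound's 2 doses minus DMSO on the log2(TPM + 1) scale, which understates changes of low genes. Both doses act as the samples of a compound in this test. The spread of a gene is estimated over all compounds together, so dose differences of some compounds widen the SE of every compound. The SE is thus not the compound's own spread between doses. With own samples and DMSO only, the SE of TFAP2B was 0.066 for LAQ824, 0.96 for Bromosporin and 1.09 for WT161. The labels do not say that samples came from separate cultures, so p-values measure only the spread between these samples. The 4 DMSO samples spanned a narrow range for each member, and most treated samples lay outside it. A value outside it therefore does not by itself set a compound apart. Of 40 treated samples, 24 were above and 12 below it for TFAP2B, and 10 and 23 for TFAP2A. For PIPOX these numbers were 27 and 10, for NOS1 25 and 9 and for OLIG2 14 and 25. For CNR1 they were 22 and 4, for DCX 25 and 10 and for PODXL 22 and 13. Most calls came from the 7 compounds of the acetylation axis, labelled for HDACs or bromodomains, with 19 of 63 pairs called against a background of 21.0%. Compounds aimed at lysine methylation had 6 of 99 pairs called (background 2.2%), and trametinib and PFI-3 had 3 of 18 (background 1.37%).

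LAQ824, labelled as an HDAC inhibitor, changed 8 of the 9 members, 3 higher and 5 lower, in a response in which 53.1% of all genes changed. Bromosporin, aimed at bromodomains, lowered 5 members (23.4% of all genes fell). WT161, aimed at HDAC6, changed 4, with 3 lower and 1 higher (32.0% of all genes changed). MC 1568, aimed at HDAC4 and HDAC5, raised 2 members where 19.6% of all genes rose. SGC-CBP30, aimed at the bromodomains of CREBBP and EP300, Merck60 (HDAC1 and HDAC2) and OJI-1 (HDAC8) changed 0 members at an adjusted p under 0.05, beside 3.41%, 0.116% and 0.171% of all genes. At an unadjusted p under 0.05, 6 members were lower with SGC-CBP30 and 0 changed with Merck60 or OJI-1, and limma's voom on reads called 5 members with SGC-CBP30 and 0 with the others. Median changes over the 9 members were −0.66 for LAQ824, −0.87 for Bromosporin, −0.12 for WT161 and 0.40 for MC 1568, beside medians of 0.06, −0.12, 0.03 and 0.26 over all genes tested. CDH3 passed the filter on low values only through the samples in which it was high, so its part in these counts and medians is no support for them.

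Among the methylation compounds, the 3 aimed at the demethylase LSD1 raised members, GSKLSD1 and LSD-519 1 each and LSD-690 2, beside 2.81%, 0.544% and 1.07% of all genes that rose. UNC0638, aimed at the methyltransferase KMT1C, lowered 1 member (9.76% of all genes fell), as did the Jumonji inhibitor Cpd50 (2.27%). Trametinib, a MEK1/2 inhibitor, raised 1 member and lowered 2 (2.7% of all genes changed). The remaining 7 compounds changed 0 members by limma, with 0.0734% of all genes called for EZ-005, 0.0672% for UNC1999, 0.183% for SGC0946, 0.465% for PFI-2, 0.0122% for GSKJ4, 0.0489% for UNC-1215 and 0.0428% for PFI-3. At an unadjusted p under 0.05, 1 member passed with EZ-005 (NOS1, at 40.2 and 33.4 TPM) and 0 with the other 6, and voom called 0 members with any of the 7.

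**Figure D2:**
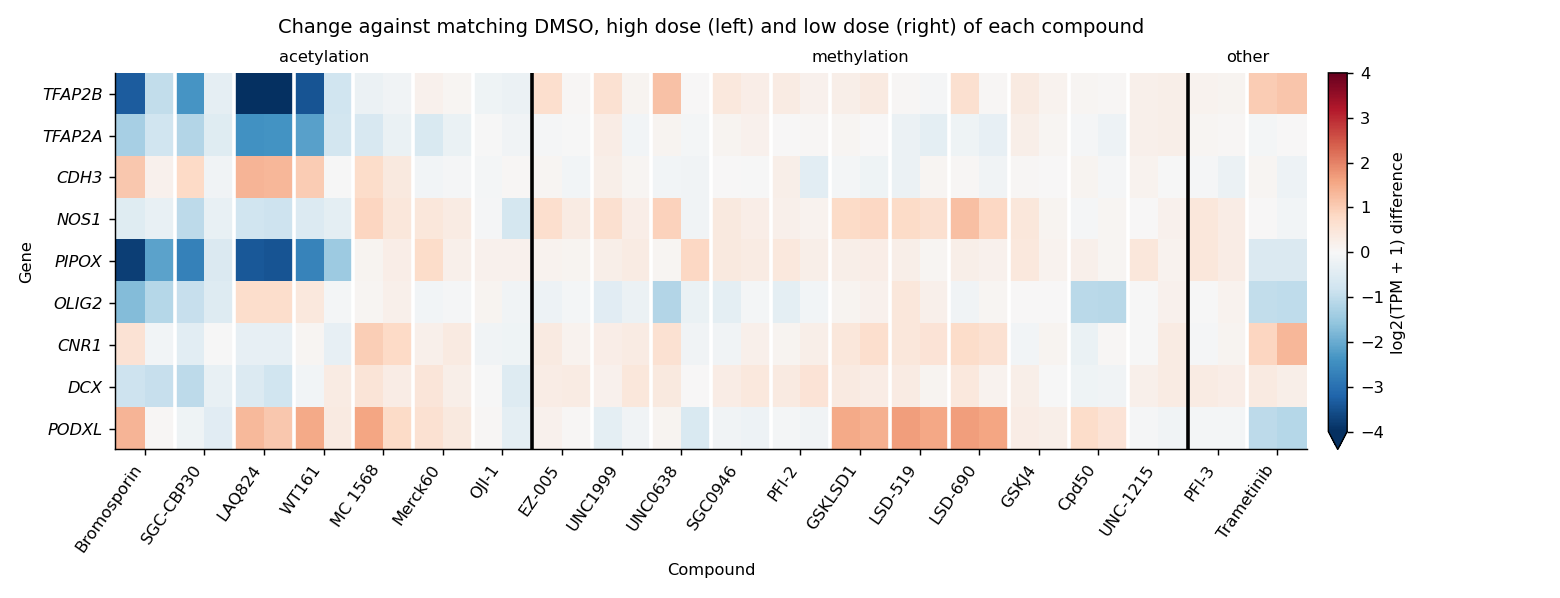
Change of each marker gene against the DMSO samples of the matching concentration, as log2(TPM + 1) difference on a colour scale from −4 to 4, for 20 compounds, each with its high dose in the left and its low dose in the right column, grouped by class of target. TFAP2B, TFAP2A and PIPOX are lowest with LAQ824 at both doses and with Bromosporin, WT161 and SGC-CBP30 at the high dose, and PODXL is high with the LSD1 compounds at both.

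The AP-2 genes fell with LAQ824, Bromosporin and WT161 and rose with none of the compounds at an adjusted p under 0.05 in the fit of all compounds. With each compound's own samples and DMSO only, the calls with LAQ824 were kept. Those with Bromosporin and WT161 were lost there (limma adjusted p from 0.184 to 0.267). TFAP2B had 1.99 TPM with 5 µM LAQ824 and 1.85 TPM with 0.5 µM, where the 4 DMSO samples had 46.7 to 51.2 TPM, a change of −4.10 ± 0.64 (log2, SE; adjusted p = 1.04e-05). Bromosporin left 3.86 TPM at 10 µM and 25.2 TPM at 1 µM (−2.15 ± 0.64, adjusted p = 0.0112), both below every DMSO sample. WT161 left 3.41 TPM at 10 µM and 28.9 TPM at 1 µM (−2.12 ± 0.64, adjusted p = 0.0131). SGC-CBP30 gave 8.41 and 39.5 TPM, lower than DMSO at both doses, with a fold change of −1.36 that did not pass the test (adjusted p = 0.276). At the other end, trametinib gave 97.8 TPM at the high and 110 TPM at the low dose, above all DMSO samples. Its fold change of 1.07 did not pass the test either, but passed with own samples and DMSO only (SE 0.081, limma adjusted p = 0.0258).

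TFAP2A had 3.69 and 4.09 TPM with the high and low dose of LAQ824, against 24.3 to 26.2 TPM in DMSO (−2.42 ± 0.30, adjusted p = 4.68e-07). With WT161 it had 4.65 and 15.3 TPM (−1.45 ± 0.30, adjusted p = 0.000672), and with Bromosporin 9.17 and 14.5 TPM (−1.06 ± 0.30, adjusted p = 0.00743). All 6 of these samples were among the 23 of 40 treated screen samples that lay below the DMSO range. The antisense gene TFAP2A-AS1 overlaps TFAP2A, and whether reads were counted by strand is not given in the sources used here, so reads of both cannot be told apart. TFAP2A-AS1 had 5.95 to 7.86 TPM in screen DMSO and 1.61 and 1.24 TPM with LAQ824. Without the 10 µM Bromosporin library, which has mostly even reads, the Bromosporin value was −0.93 for TFAP2B (adjusted p = 0.495) and −0.76 for TFAP2A (adjusted p = 0.232), so both calls rest on that library.

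OLIG2, the third transcription factor gene, fell with 4 compounds of different targets and rose with 1. Bromosporin gave 4.43 and 7.43 TPM at the high and low dose, against 17.3 to 17.9 TPM in DMSO (−1.45 ± 0.23, adjusted p = 0.000124), and without its 10 µM library the value was −1.13 (adjusted p = 0.0209). Cpd50 gave 7.68 and 7.72 TPM (−1.09 ± 0.23, adjusted p = 0.00395), and trametinib 8.13 and 8.14 TPM (−1.02 ± 0.23, adjusted p = 0.0149). For these last compounds the 2 doses gave nearly the same level, far below the DMSO range. UNC0638 lowered OLIG2 at 10 µM, to 7.02 TPM, more than at 1 µM, with 14.4 TPM (−0.73 ± 0.23, adjusted p = 0.0417), and this call was lost when samples were rescaled by median ratios (−0.63, adjusted p = 0.067). LAQ824 raised OLIG2 to 28.9 and 29.4 TPM (0.71 ± 0.23, adjusted p = 0.0131), above every DMSO sample and opposite to its effect on the AP-2 genes.

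Of the enzyme genes, PIPOX fell with the same 3 compounds as the AP-2 genes. With each compound's own samples and DMSO only, its call was kept with LAQ824 and lost with Bromosporin (limma adjusted p = 0.179) and WT161 (0.114). LAQ824 left 10.4 and 10.99 TPM at the high and low dose where DMSO had 119 to 131 TPM (−3.42 ± 0.47, adjusted p = 2.29e-06). Bromosporin left 7.92 TPM at 10 µM and 28.5 TPM at 1 µM (−2.95 ± 0.47, adjusted p = 0.000121), and WT161 17.9 and 47.0 TPM (−2.06 ± 0.47, adjusted p = 0.00184). No treated sample of these compounds reached the DMSO range. SGC-CBP30 gave 17.7 TPM at 10 µM and 86.4 TPM at 1 µM, with a fold change of −1.64 ± 0.47 and an adjusted p of 0.0546, and this change passed the test after median-ratio scaling (−1.69, adjusted p = 0.031). Without the 10 µM Bromosporin library, the Bromosporin value was −2.09 (adjusted p = 0.025).

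NOS1 changed less than PIPOX and in both directions. It fell with LAQ824 to 13.9 and 14.3 TPM from 23.7 to 27.3 TPM in DMSO (−0.82 ± 0.24, adjusted p = 0.00628). With LSD-690 it rose to 59.0 TPM at the high and 47.0 TPM at the low dose (1.01 ± 0.24, adjusted p = 0.0317). The groups did not overlap in either comparison. Of the 40 treated samples, 9 lay below the DMSO range and 25 above it. With own samples and DMSO only, the LAQ824 call was kept and the LSD-690 call was lost (limma adjusted p = 0.0723). The other LSD1 compounds gave 43.5 and 47.1 TPM (GSKLSD1) and 43.6 and 41.2 TPM (LSD-519), also above every DMSO sample, with fold changes of 0.80 (adjusted p = 0.0658) and 0.70 (adjusted p = 0.331) that did not pass. MC 1568 gave 45.7 and 36.3 TPM, above DMSO at both doses, with a fold change of 0.65 that missed the threshold (adjusted p = 0.0536).

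PODXL was the member changed by most compounds, 7 of 20, and the only one raised by more than 2. LSD-519 gave 130 and 129 TPM at the high and low dose, LSD-690 130 and 131 TPM, and GSKLSD1 117 and 119 TPM, where DMSO had 39.6 to 44.5 TPM. The fold changes of these 3 LSD1 compounds were 1.60 ± 0.28 (adjusted p = 0.00332), 1.62 ± 0.28 (adjusted p = 0.00216) and 1.48 ± 0.28 (adjusted p = 0.00254). The rise was as large at 1 µM as at 10 µM for each of them. With own samples and DMSO only, the calls with GSKLSD1 and LSD-519 were kept and that with LSD-690 was lost (limma adjusted p = 0.0638). In the acetylation group, LAQ824 raised PODXL to 100 and 94.2 TPM (1.20 ± 0.28, adjusted p = 0.000864), MC 1568 to 121 and 74.7 TPM (1.17 ± 0.28, adjusted p = 0.00418) and WT161 to 116 and 56.8 TPM (0.94 ± 0.28, adjusted p = 0.0117). Bromosporin gave 104 TPM at 10 µM and 45.0 TPM at 1 µM, with a fold change of 0.70 ± 0.28 that missed the threshold (adjusted p = 0.0527) and passed it after median-ratio scaling (adjusted p = 0.043). Without its 10 µM library the value was 0.10 (adjusted p = 0.892). Trametinib lowered PODXL to 18.7 and 19.3 TPM (−1.10 ± 0.28, adjusted p = 0.0302), below every DMSO sample, a call that was lost after that scaling (adjusted p = 0.057).

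**Figure D3:**
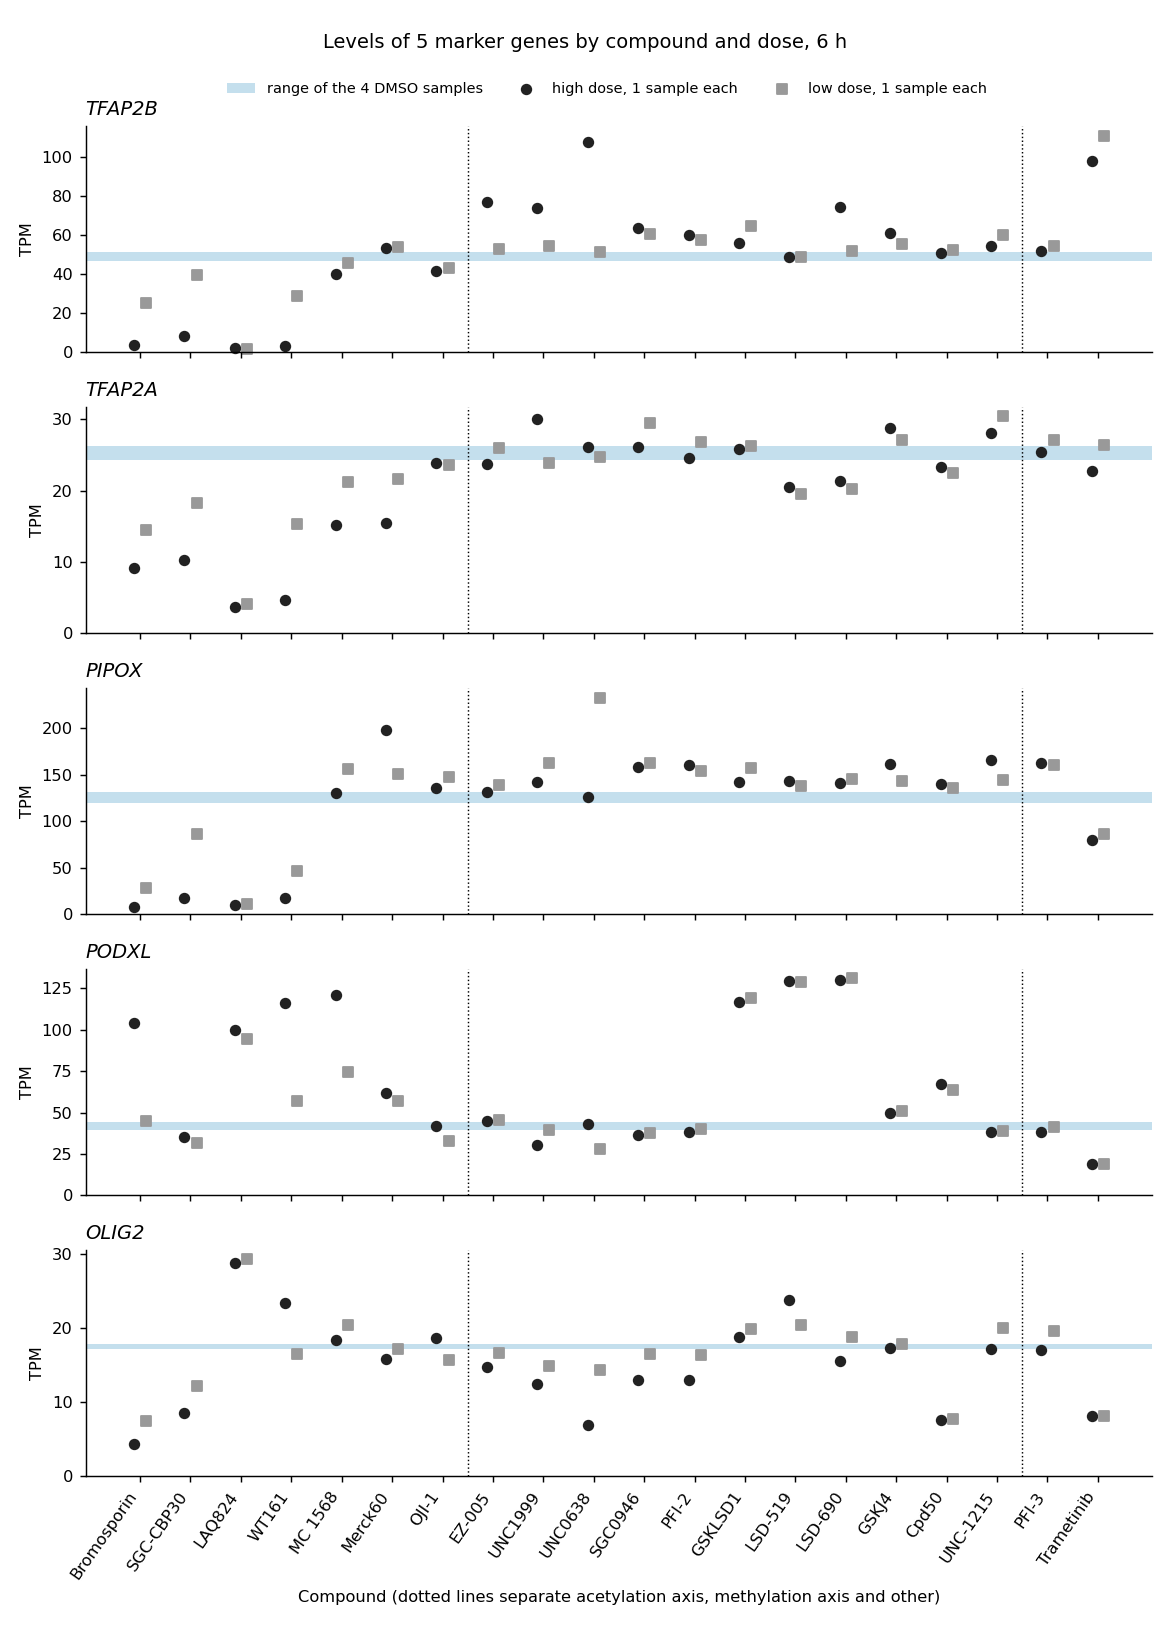
Levels of TFAP2B, TFAP2A, PIPOX, PODXL and OLIG2 by compound, in TPM on axes that start at 0, with separate points for the high and the low dose and a band for the range of the 4 DMSO samples. With LAQ824 both doses of TFAP2B, TFAP2A and PIPOX lie far below the band, with WT161 and Bromosporin the high dose lies lower than the low dose, and for PODXL the LSD1 compounds stand above the band at both doses.

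CNR1 rose with MC 1568 and with trametinib. MC 1568 gave 8.02 and 6.29 TPM at the high and low dose, against 2.77 to 3.75 TPM in DMSO (0.89 ± 0.24, adjusted p = 0.0099). Trametinib gave 7.17 and 9.52 TPM (1.08 ± 0.24, adjusted p = 0.0116), and none of the 4 treated samples overlapped DMSO. The 3 LSD1 compounds gave 5.19 to 6.65 TPM, all above DMSO, as were 22 of the 40 treated samples of the screen. None of the LSD1 fold changes (0.50 to 0.68) passed the test. All genes tested had a median change of 0.26 with MC 1568, beside 0.89 for CNR1 and 1.17 for PODXL.

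CDH3 was called only with LAQ824, at 2.31 and 2.39 TPM from 92 and 112 reads, against 0.280 to 0.389 TPM in DMSO (1.34 ± 0.28). It reached 1 TPM in 6 samples, all with acetylation compounds, and so entered the test only through samples in which it was high. This call is therefore no support. TFAP2B, the other marker used on tumour sections, was lower with LAQ824, but a fall of CDH3 from its DMSO level could not have been measured. DCX fell with Bromosporin, to 9.88 and 10.6 TPM from 18.1 to 21.8 TPM in DMSO (−0.87 ± 0.22, adjusted p = 0.00409), and with LAQ824, to 12.4 and 11.6 TPM (−0.66 ± 0.22, adjusted p = 0.0149). Without the 10 µM Bromosporin library the value for Bromosporin was −0.83 (adjusted p = 0.087).

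Flow cell and compound were partly confounded, because 14 compounds shared a flow cell that held no DMSO sample. When each compound was set against DMSO of its own flow cell, or against the mean of the other compounds on that flow cell, 27 of the 28 calls could be tested and 27 were kept. TFAP2B with LAQ824, set against DMSO of its own flow cell, was at −4.12. For the 14 compounds, the reference held others that changed members themselves, among them Bromosporin, WT161, LSD-519 and LSD-690. That reference was thus not a solvent level, so the kept calls of these 14 do not show that flow cell played no part. PODXL with trametinib was at −1.42 against it, beside −1.10 against DMSO.

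Among the methylation compounds the levels of most markers stayed close to, or somewhat above, those of DMSO. TFAP2B ranged from 48.7 to 107 TPM over the 11 high doses (median 61.1) and from 48.7 to 64.6 TPM over the 11 low doses, with none below the DMSO range of 46.7 to 51.2 TPM. Its highest value came with UNC0638 at 10 µM. PIPOX ranged from 126 to 166 TPM at the high doses and from 136 to 232 TPM at the low doses, and NOS1 from 24.2 to 59.0 and from 24.0 to 47.1 TPM. TFAP2A stayed between 19.5 and 30.4 TPM over all 22 samples, lowest with LSD-519 at 1 µM. By contrast, the 7 high doses of acetylation compounds had a median of 8.41 TPM for TFAP2B, 10.2 TPM for TFAP2A and 17.9 TPM for PIPOX, with ranges of 1.99 to 53.3, 3.69 to 23.9 and 7.92 to 198 TPM. The upper ends of TFAP2B and PIPOX in these ranges were Merck60 at 10 µM, a library of mostly even reads.

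The dose response separated LAQ824 from the other acetylation compounds that lowered TFAP2B. Each dose is 1 sample, so the values of a dose alone have no spread of their own. The high dose minus the low dose, on the log2(TPM + 1) scale, was −2.67 for TFAP2B with WT161, −2.33 with Bromosporin and −2.01 with SGC-CBP30, and 0.16 with LAQ824. For PIPOX the same difference was −2.12 with SGC-CBP30, −1.62 with Bromosporin, −1.24 with WT161 and 0.04 with LAQ824. For the fits of a single dose, the compound has 1 sample, which is assumed to vary like the samples of the other compounds. With the low dose alone in the fit, all 4 calls of WT161 were lost, with TFAP2B at −0.74 (adjusted p = 0.517), TFAP2A at −0.68 (0.0751), PIPOX at −1.39 (0.0988) and PODXL at 0.43 (0.395). For Bromosporin at the low dose alone, PIPOX (−2.09, adjusted p = 0.0166) and OLIG2 (−1.13, adjusted p = 0.0140) were kept. For LAQ824 at the low dose alone, 7 of the 8 calls were kept, and OLIG2 was at 0.72 with an adjusted p of 0.0505. Over all compounds, 47 of 360 values of a member at a dose lay past a 2-fold change of TPM + 1 against DMSO of the matching concentration, 20 higher and 27 lower, where 5.97% of all values did. The high doses had 13 higher and 18 lower of 180 values (background 7.69%), and the low doses 7 higher and 9 lower of 180 (background 4.26%). At 10 µM SGC-CBP30 alone, TFAP2B, TFAP2A, NOS1, PIPOX and DCX lay past 2-fold lower, with 8.41, 10.2, 11.5, 17.7 and 8.36 TPM (7.41% of all genes were past 2-fold in either direction).

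Whether the acetylation axis as a class differed from the methylation axis was asked over compounds, with 7 acetylation and 11 methylation compounds as the samples. PFI-3 and trametinib were put in neither class. With PFI-3, TFAP2B was at 0.13 and 0.10 and PIPOX at 0.44 and 0.31 at the high and low dose. An assignment of PFI-3 to a class was not tested. The AP-2 genes and PIPOX were lower with the acetylation compounds on average, with a wide spread among those compounds and a narrow one among the methylation compounds. TFAP2B had a mean change of −1.43 ± 1.50 (SD, n = 7) with acetylation and 0.28 ± 0.16 (SD, n = 11) with methylation compounds, a difference of −1.71 ± 0.41 (SE; limma adjusted p = 0.0568). The difference was −0.96 ± 0.23 for TFAP2A, −1.58 ± 0.43 for PIPOX and −0.67 ± 0.19 for NOS1, each with an adjusted p of 0.0568. CDH3 differed by 0.49 ± 0.14. By limma 0 of 9 members and 0 of 16359 genes passed, with 5018 genes at an unadjusted p under 0.05. For OLIG2 (0.03) and PODXL (0.13) the difference was small beside the spread of either class. The means hide that Merck60, OJI-1 and MC 1568 left TFAP2B near its DMSO level, between −0.24 and 0.17 at each dose.

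With the high doses alone, 5 members passed, where 9.87% of all genes did. These were TFAP2B (−2.35, adjusted p = 0.0364), TFAP2A (−1.24, adjusted p = 0.0364), PIPOX (−1.93, adjusted p = 0.0382), NOS1 (−0.78, adjusted p = 0.0480) and CDH3 (0.65). CDH3 reached 1 TPM in 6 samples, all with acetylation compounds, so it entered the test only through the class in which it was high and its value is no support. Without the 3 libraries of mostly even reads, 4 members passed at the high dose (7.66% of all genes), with TFAP2B at −2.50, TFAP2A at −1.34, PIPOX at −1.96 and CDH3 at 0.75, while NOS1 (−0.90) had an adjusted p of 0.0526. Among the compounds of the 1 flow cell that held most of them, 0 members passed, with TFAP2B at −1.46. Leaving out Merck60 gave 6 members (16.3% of all genes), leaving out MC 1568 gave 6 (15.3%) and leaving out OJI-1 gave 5 (18.7%). Whether the effect of dose itself differed between the axes was also tested, and 0 genes passed (2533 at an unadjusted p under 0.05), with TFAP2B at −1.29 (adjusted p = 0.195).

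**Figure D4:**
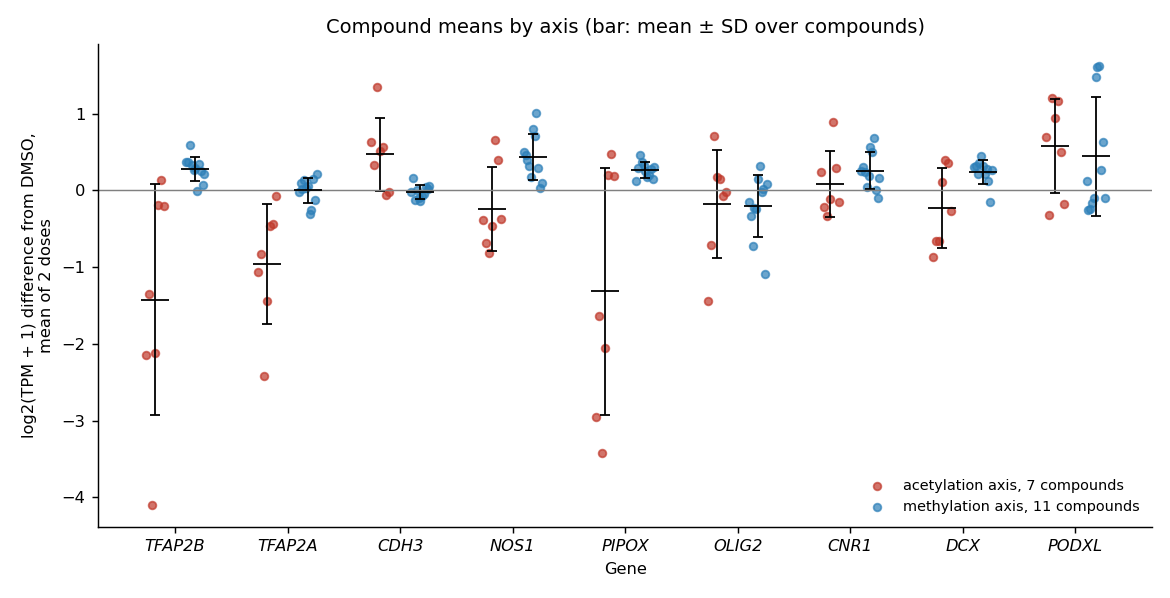
Mean log2(TPM + 1) change of each marker gene against DMSO over both doses, by class of target, with one point per compound and bars for the mean ± SD of 7 acetylation and 11 methylation compounds. The acetylation points of TFAP2B and PIPOX reach from near 0 to −4.10 and −3.42, and the high methylation points of PODXL are the 3 LSD1 compounds.

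N1302, labelled as an HDAC inhibitor, and entinostat, labelled for HDAC1, HDAC2 and HDAC3, were each given in RH4-titled samples with 1 sample per condition, so these values have no replicate check. N1302 at 6 h put 6 of 9 members past 2-fold, 2 higher and 4 lower, where 30.9% of all genes were past it. TFAP2B went from 10.8 TPM in its DMSO sample to 0.468 TPM (19 reads), TFAP2A from 12.8 to 1.57 TPM and PIPOX from 23.4 to 5.72 TPM, differences of −3.01, −2.43 and −1.86 in log2(TPM + 1). PODXL went from 20.8 to 64.9 TPM and OLIG2 from 8.19 to 19.5 TPM, the same directions as with LAQ824 in the screen. DCX went from 13.2 to 3.78 TPM (−1.57). NOS1 was low in both samples, at 1.304 and 0.347 TPM. After median-ratio scaling the median of all genes moved from −0.11 to 0.03 for N1302, and the values were −2.91 for TFAP2B, −1.58 for PIPOX, 1.48 for OLIG2 and 1.92 for PODXL.

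Entinostat moved 0 members past 2-fold at 1 h (1.24% of all genes), 2 at 6 h (6.08%) and 6 at 24 h (22.4%). At 6 h TFAP2A was at 10.5 TPM against 25.5 TPM in DMSO (−1.20) and PODXL at 39.7 against 12.1 TPM (1.64). TFAP2B was at 18.3 against 35.4 TPM (−0.91) and PIPOX at 124 against 77.4 TPM (0.67), so the AP-2 genes and PIPOX lay on opposite sides of DMSO at this time. At 24 h all 3 were lower, TFAP2B at 4.96 against 38.8 TPM (−2.74), TFAP2A at 9.77 against 26.6 TPM (−1.36) and PIPOX at 20.2 against 80.5 TPM (−1.95). NOS1 went from 10.3 TPM with entinostat at 6 h to 1.73 TPM at 24 h, beside 8.04 and 9.72 TPM in DMSO of these times. PODXL reached 103 TPM at 24 h against 14.0 TPM (2.80). DCX was higher with entinostat, at 32.3 against 11.05 TPM at 24 h (1.47), where N1302 had it lower at 6 h. OLIG2 stood at 13.1 against 14.4 TPM at 24 h, with no rise such as that with N1302.

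The low control of the N1302 experiment bears on these values. With the mean of both 6 h DMSO samples as the reference, entinostat at 6 h gave −0.10 for TFAP2B, −0.73 for TFAP2A, 1.51 for PIPOX, 1.31 for NOS1 and 1.27 for PODXL. N1302 gave −3.82 for TFAP2B, −1.76 for NOS1, 0.72 for OLIG2 and 1.96 for PODXL with that reference.

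**Figure D5:**
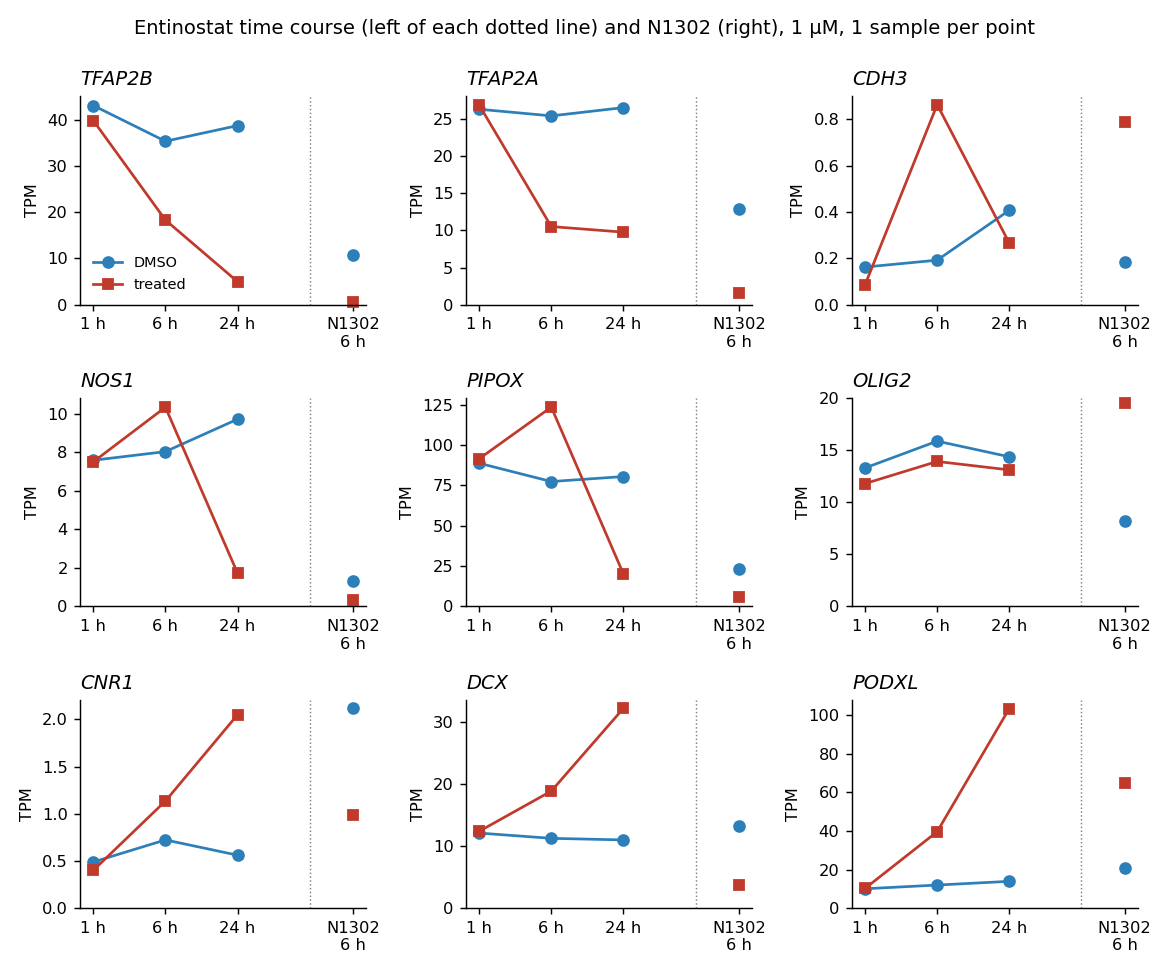
Marker gene levels, in TPM, in RH4-titled samples with N1302 and its DMSO sample and with entinostat and DMSO at 1, 6 and 24 h (times evenly spaced, not to scale), with 1 sample per point. TFAP2B, TFAP2A and PIPOX are below DMSO at 24 h of entinostat and with N1302, PODXL is above, and DCX lies on opposite sides for the 2 compounds.

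Other genes linked to FP-RMS were called lower more often than higher. Their list was chosen with earlier results of these data known. It holds MYOD1, MYOG and SOX8, which the study itself reports as lowered by HDAC inhibitors. The counts are therefore descriptions and no independent support. Of 18 genes listed from knowledge of the disease, among them muscle factors, receptors and PAX3-FOXO1 targets, 17 could be tested, and 4 of 340 pairs with a compound were higher and 39 lower, where 4.54% of all pairs were higher and 4.16% lower. LAQ824 lowered 12 of the 17 (median −1.48; 24.6% of all genes fell), WT161 9 (14.3%), Bromosporin 7 (23.4%), UNC0638 5 (9.76%) and SGC-CBP30 3 (2.68%). FOXF1, a forkhead factor, went with LAQ824 from 104 to 115 TPM in DMSO to 4.58 and 4.08 TPM (−4.37), and MYOD1, the muscle determination factor, changed by −3.12. Of 3 markers of fusion-negative rhabdomyosarcoma (HMGA2, EGFR and FBN2), 3 of 60 pairs were higher and 5 lower, beside 8.7% of all pairs called. HMGA2, a chromatin protein at 131 to 139 TPM in these fusion-positive controls, fell with LAQ824 by 3.98. Relatives of the members, such as other cadherins, nitric oxide synthases and doublecortin-like kinases, had 8 of 200 pairs higher and 13 lower over the 10 of 18 that were tested, a share near the 8.7% of all pairs. CDH2 (N-cadherin) rose with MC 1568 (1.26) and DCLK2, a doublecortin-like kinase, fell with LAQ824 (−1.24).

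Members also resembled each other to different degrees over the 20 compound means. These points share the same DMSO reference and the few compounds with large effects, so the correlations are descriptions. Pearson's r was 0.95 between TFAP2B and TFAP2A, 0.92 between TFAP2B and PIPOX, 0.90 between TFAP2A and PIPOX and −0.91 between TFAP2B and CDH3. Among 11114 genes with a mean of at least 5 TPM, the most similar to TFAP2B over these 20 means were LOC101929504 and ZNF704 (r = 0.98 each), to TFAP2A UBTF and EMX2 (0.97 each), and to PIPOX CABLES1 and TMCO4 (0.98 each). For OLIG2 they were DTNBP1 (0.94) and RRP12 (0.90), and for NOS1 FAT1 and RGMB-AS1 (0.93 each). ITGA6 (0.94), an integrin subunit, and TSPAN9 (0.92), a tetraspanin, were most like PODXL. LIN7A (0.95) and SEMA3A (0.93) were most like DCX, ZNF707 (0.96) and SUGP1 (0.95) most like CDH3, and TMCC3 (0.88) and LRRN1 (0.85) most like CNR1.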

How the data were processed

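RNA-seq of 52 cell line samples was deposited as 1 table of TPM values per sample. The authors aligned reads to hg19 with STAR and quantified transcripts with RSEM per the study's methods, and the submitters' processing notes also name edgeR. The deposited TPM values were whole multiples of a value per read for 23645 of 23645 detected genes (100%), which gave the reads per gene and the depth quoted, and counting error at low reads limits precision. The members and gene lists were chosen with earlier results of these data known. TPM was analysed as log2(TPM + 1) with limma 3.58.1 (R 4.3.3, eBayes with trend), after keeping 16359 genes with at least 1 TPM in at least 2 samples, a filter all 9 members passed. Duplicate DMSO libraries were averaged (n = 2). Those with the same replicate number shared a flow cell by their file names, which pairs them by batch (correlation of deviations 0.07). A call is a Benjamini-Hochberg adjusted p under 0.05 over all genes, without a fold threshold. Conditions with 1 sample were given as values, and 2-fold of TPM + 1 was their threshold. Named beyond the members were, per member, the 2 genes with the highest correlation and, per list, up to 4 examples with the smallest p. The scripts were tested on simulated data. Alternatives were another pseudocount (0.1), median-ratio scaling, other filters, single doses, flow cell, voom on reads, and leaving out samples or compounds. After the data were seen, exclusion of the 3 libraries of mostly even reads (also with the high dose alone) and the test of dose effects between axes were added.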

Additional observations from a re-analysis of the deposited data

Results flagged for a closer look

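Among the 4 RH4-titled DMSO samples, 5 members had 1 sample far from the others by Dixon's test, out of 18 groups tested, which were for each member these 4 samples and the 7 acetylation compounds. Chance alone marks about 1 in 20 such groups if they are independent. They are not, because the same samples and compounds recur for each member. The 4 DMSO samples also differ in time and experiment, so the number of flags cannot be set against that share. The DMSO sample of the N1302 experiment was lowest for TFAP2B (log2(TPM + 1) of 3.56), TFAP2A (3.79), NOS1 (1.20) and PIPOX (4.61). For CDH3 the DMSO sample of 24 h was highest (0.49, from 20 reads).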

How the results depend on the processing

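Of the 28 pairs of a member and a compound that were called, 7 were kept in every alternative other than the fold threshold and 21 were lost in at least 1, none of them with a change of sign. Among the 7 is CDH3 with LAQ824. CDH3 passed the filter on low values only through samples in which it was high, so that pair is no support. The number called was 13 with the low dose alone, 32 with the high dose alone, 24 with each compound's own samples and DMSO only, 21 with a fold threshold of 2, 26 without the 3 libraries of mostly even reads and 37 each with 4 DMSO samples kept, with voom on reads and within flow cells. With each compound's own samples and DMSO only, 16 of the 28 called pairs were kept and 12 were lost. All calls of Bromosporin (adjusted p from 0.168 to 0.253) and of WT161 (0.114 to 0.267) were among those lost, and all of LAQ824 were kept. Leaving out each DMSO library gave 28 to 30. Between the axes, 0 members became 5 with the high dose alone (9.87% of all genes), 4 with that dose and without the 3 libraries (7.66%), 4 with a mean of at least 5 TPM (7.5%), and 0 to 6 when 1 compound was left out (0 to 18.7%). CDH3 is counted with the high dose alone, with and without the 3 libraries, and is no support there either. Between control sets, 2 members became 4 with 4 DMSO samples kept (32.8% of all genes) and 0 with 6 h samples only (0 genes), and 0 to 6 when 1 sample was left out (3.83 to 43.9%). The cause was not tested for these.

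Values of a member at a dose past 2-fold numbered 47 over both doses and 41 to 53 under the alternatives, and 14 for N1302 and entinostat, with 19 at a pseudocount of 0.1 and 15 each with scaling and with both 6 h DMSO samples. Between DMSO concentrations the replicate block, which here is the flow cell, gave 0 members and 0 genes by limma, as without it, with 1768 and 1548 genes at an unadjusted p under 0.05. Depth limits CDH3, at 7 to 12 reads in DMSO, and single samples per condition limit every value per dose and time.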
